A study of Mus musculus with 8 samples.

Results

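Genes of the red blood cell lineage were followed in lung samples of newborn mice, which hold blood with its circulating red cells. The set consists of 8 genes chosen by name: Alas2, Slc4a1, Epb42, Ahsp, Klf1, Hemgn, Rhag and Rhd. Of these, 7 were measured among the 20717 named genes of the array, and Ahsp was not analysed here. The 7 genes were read by 8 array features, of which 2 belonged to Epb42 and 1 to each of the others. The study profiled 8 lungs of C57Bl/6J pups kept in a chamber with 20% oxygen from postnatal day 0 to day 3 (P0-P3). The samples were 4 of wild type and 4 labelled Fgf10+/-, that is, heterozygous for a lung growth factor. Both groups were treated alike, and the total RNA of each lung sample was labelled with Cy3 and read on a 1-colour Agilent array. The comparison asks whether the erythroid signal differed between the genotypes, and how far it differed between single lungs. Flushing of the lungs, litter, sex and array slide are not stated in the labels.

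Red blood cells are made from erythroblasts, which shut down most genes, fill with hemoglobin and expel their nucleus. The young anucleate cell, the reticulocyte, still holds RNA and loses it as it matures, so that whole blood carries globin messages together with a small set of late erythroid messages. Nuclear regulators such as KLF1 and GATA1 act earlier, in dividing precursors of the fetal liver, the newborn spleen and the bone marrow. In a bulk sample, fewer cells of a type and less RNA per cell cannot be told apart.

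The promoters of these genes are shown because genes of the set that moved together and genes that did not could share or lack the letters read by the main erythroid transcription factors. RefSeq promoter entries (GRCm38.p6) were matched by symbol for 6 of the 8 genes, Alas2, Epb42, Hemgn, Klf1, Rhag and Rhd. The 250 bases before the annotated start were searched on both strands for words read by GATA factors (AGATAA with its variants AGATAG and TGATAA, and also TGATAG) and for a CACCC-type word read by KLF factors (CCNCNCCC). All 6 held a GATA word, which 26.5% of 32851 promoter windows of the same length hold. A KLF word was present in 2 of the 6, Alas2 and Hemgn, and in 45.9% of all windows. The matches in these 2 overlap each other, except the Alas2 match 26 to 19 bases before the start. A match describes letters and is not a shown binding site. The sequences below run 5′ to 3′ with GATA and KLF words in capitals, for 2 genes that swung widely between lungs (Alas2, chrX:150547167-150547416, plus strand; Epb42, chr2:121036878-121037127, minus strand), 1 gene with a steady signal (Hemgn, chr4:46404184-46404433, minus strand) and 1 gene near the floor (Klf1, chr8:84901732-84901981, plus strand).
Alas2: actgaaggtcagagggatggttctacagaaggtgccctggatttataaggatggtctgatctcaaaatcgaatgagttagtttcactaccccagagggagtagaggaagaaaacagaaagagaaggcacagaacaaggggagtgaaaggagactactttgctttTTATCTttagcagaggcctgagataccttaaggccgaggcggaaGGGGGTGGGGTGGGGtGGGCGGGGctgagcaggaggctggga
Epb42: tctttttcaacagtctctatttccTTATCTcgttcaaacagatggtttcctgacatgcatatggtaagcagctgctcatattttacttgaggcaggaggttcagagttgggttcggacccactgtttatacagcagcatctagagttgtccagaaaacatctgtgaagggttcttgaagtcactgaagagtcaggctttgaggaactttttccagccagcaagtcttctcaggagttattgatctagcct
Hemgn: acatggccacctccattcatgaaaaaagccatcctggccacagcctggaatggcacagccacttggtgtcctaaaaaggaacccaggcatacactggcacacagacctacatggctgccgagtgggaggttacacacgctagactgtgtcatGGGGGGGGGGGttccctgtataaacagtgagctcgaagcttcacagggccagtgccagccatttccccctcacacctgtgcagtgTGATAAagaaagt
Klf1: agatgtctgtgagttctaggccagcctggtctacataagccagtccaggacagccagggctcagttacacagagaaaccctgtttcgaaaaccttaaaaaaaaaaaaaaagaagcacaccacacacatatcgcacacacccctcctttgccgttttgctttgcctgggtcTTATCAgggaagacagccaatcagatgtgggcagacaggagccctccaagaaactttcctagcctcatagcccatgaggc
In Alas2 the GATA word lies 86 to 81 bases before the start and the 4 KLF matches lie within a G-rich stretch 42 to 19 bases before it. In Epb42 the GATA word lies 226 to 221 bases before the start. Hemgn has its GATA word 13 to 8 bases before the start, and its KLF matches are all in 1 run of G. In Klf1 the GATA word lies 80 to 75 bases before the start. The steady and the dim gene thus carry the same kind of word as the genes that swung.

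The arrays were alike as a whole. Correlations of 1 array with another ran from 0.977 to 0.986 across genes, every array had a median log2 signal of 3.47 over its 62976 features, and 0 pairs of arrays were identical. The tissue label was borne out by surfactant gene Sftpc, at log2 signals of 15.98 to 15.99, and club cell gene Scgb1a1, at 15.91 to 15.98. Wild-type replicate 4 stood apart, since skeletal muscle markers lay 3.07 and cartilage markers 3.72 above their gene means there (mean log2 deviation of 12 and 10 genes) and below them in the other 7 arrays. The targeted gene Fgf10 had a log2 signal of 7.46 ± 0.40 (SD, n = 4) in wild-type libraries and 7.95 ± 0.32 (SD, n = 4) in libraries labelled Fgf10+/- (difference 0.49, two-sided exact permutation p = 0.0857), so it was not lower there, and the genotype rests on the labels. "Fgf10+/-" below means the libraries labelled so.

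Alas2 encodes the erythroid form of 5-aminolevulinate synthase, the first and rate-setting enzyme of heme synthesis in red cell precursors. Its log2 signal was 10.72, 8.85, 11.35 and 11.71 in wild-type replicates 1 to 4, and 8.31, 11.27, 13.65 and 10.13 in Fgf10+/- replicates 1 to 4. The highest and the lowest lung were both Fgf10+/-, and they differed by 5.34 on the log2 scale, or 40.5-fold. By this range Alas2 ranked 20th of 20717 genes. The groups overlapped fully, with means of 10.66 ± 1.27 (SD, n = 4) in wild type and 10.84 ± 2.23 (SD, n = 4) in Fgf10+/-. Their difference of 0.18 (SE 1.11, 95% interval -2.38 to 2.74) was far smaller than the spread between lungs of 1 genotype (two-sided exact permutation p = 0.943, from all 70 ways to split the lungs; limma adjusted p = 0.971). Without Fgf10+/- replicate 3 the difference was -0.75, and without wild-type replicate 2 it was -0.42, so its sign depended on single lungs.

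Slc4a1 encodes band 3, the anion exchanger that carries bicarbonate across the red cell membrane and anchors the membrane skeleton. It read 8.73, 7.51, 8.73 and 8.76 in wild-type replicates 1 to 4, and 6.60, 8.07, 10.11 and 7.46 in Fgf10+/- replicates 1 to 4. Again Fgf10+/- replicate 3 was the highest and Fgf10+/- replicate 1 the lowest lung, 11.4-fold apart. The other 3 wild-type lungs lay close together, above wild-type replicate 2. The means were 8.43 ± 0.62 (SD, n = 4) in wild type and 8.06 ± 1.49 (SD, n = 4) in Fgf10+/-. The difference of -0.37 (SE 0.70, 95% interval -1.98 to 1.24) did not exceed the spread between lungs (two-sided exact permutation p = 0.686; limma adjusted p = 0.892). It was 0.12 without Fgf10+/- replicate 1 and -1.05 (SE 0.44, limma adjusted p = 0.468) without Fgf10+/- replicate 3, where its unadjusted p was under 0.05.

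Epb42 encodes protein 4.2, which ties band 3 to ankyrin in the red cell skeleton. The brighter of its features read 4.34, 2.19, 3.47 and 4.90 in wild-type replicates 1 to 4, and 2.86, 3.90, 6.58 and 3.58 in Fgf10+/- replicates 1 to 4. Fgf10+/- replicate 3 was once more the highest, while wild-type replicate 2, close to the floor of the scale, was the lowest. A fold between them is not given, since the lowest value lies below the array median. The group means of 3.73 ± 1.18 (SD, n = 4) and 4.23 ± 1.62 (SD, n = 4) differed by 0.50 (SE 0.87, 95% interval -1.50 to 2.51; two-sided exact permutation p = 0.657; limma adjusted p = 0.880). The difference was -0.28 without Fgf10+/- replicate 3 and -0.01 without wild-type replicate 2. The other Epb42 feature did not show this pattern. It stayed between 1.99 and 3.04, below the array median in all lungs.

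**Figure D1:**
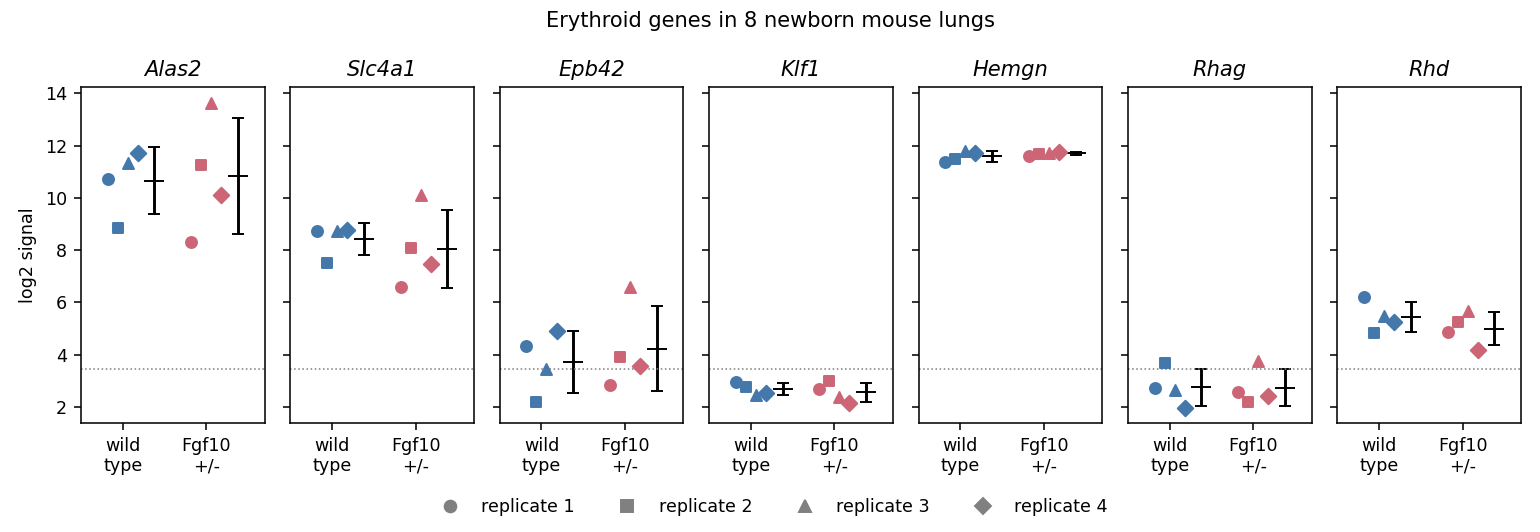
Log2 signal (vertical axis) of the 7 measured erythroid genes in the 4 wild-type (blue) and 4 Fgf10+/- (red) lungs, with the replicate given by the symbol. Black bars show the mean and SD of each group and the dotted line the array median of 3.47. Alas2 and Epb42 spread widely within both groups and Slc4a1 mainly within Fgf10+/-, each with Fgf10+/- replicate 3 on top. Hemgn stays between 11.36 and 11.79 and Klf1 below 3.47.

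Alas2 and Slc4a1 ordered the lungs in nearly the same way, and Epb42 did so less closely. Wild-type replicate 3, for example, had order 3 from the top for Alas2 and order 6 for Epb42. Over the 8 lungs, Alas2 and Slc4a1 correlated with r = 0.94 (exact permutation p = 0.00067, adjusted p = 0.0141 over 21 pairs of genes) and rho = 0.95 (exact permutation p = 0.00114, adjusted p = 0.024). After leaving out Fgf10+/- replicates 1 and 3, the lungs farthest from the Alas2 median, r was 0.78. Alas2 and Epb42 correlated with r = 0.91 (exact permutation p = 0.00243, adjusted p = 0.0255) and rho = 0.81 (exact permutation p = 0.0218, adjusted p = 0.193), with r = 0.84 without those lungs. For Slc4a1 and Epb42, r was 0.86 (exact permutation p = 0.00729, adjusted p = 0.051), rho was 0.76 (exact permutation p = 0.0368, adjusted p = 0.193), and r without those lungs was 0.70. The rank correlations with Epb42 therefore did not pass after adjustment, nor did r of Slc4a1 with Epb42. Only Alas2 and Slc4a1 passed on both measures. Within the 4 wild-type lungs alone r was 0.95, 0.86 and 0.88 for these pairs, and within the 4 Fgf10+/- lungs it was 0.99, 0.95 and 0.99, as a description only. The other 18 pairs had adjusted p of 0.275 or more for r and 0.193 or more for rho.

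No pair that included any of the other 4 members passed after adjustment. Rhd encodes a subunit of the Rh complex of the red cell membrane. It read 6.21, 4.82, 5.47 and 5.26 in wild-type and 4.88, 5.26, 5.67 and 4.19 in Fgf10+/- replicates 1 to 4. The highest lung was wild-type replicate 1 and the lowest Fgf10+/- replicate 4, 4.06-fold apart, and the groups overlapped. Rhd correlated with Slc4a1 at r = 0.68 (exact permutation p = 0.0639, adjusted p = 0.275) and rho = 0.76 (exact permutation p = 0.0368, adjusted p = 0.193), with r = 0.82 without the outermost lungs, and so did not pass. This rho equals that of Slc4a1 with Epb42, and whether Rhd and Epb42 differ in how they follow Slc4a1 was not tested. The mean was 5.44 ± 0.58 (SD, n = 4) in wild type and 5.00 ± 0.63 (SD, n = 4) in Fgf10+/-. The difference of -0.44 (SE 0.38, 95% interval -1.31 to 0.43) was the member difference with the smallest limma p, 0.277 before and 0.730 after adjustment (two-sided exact permutation p = 0.371).

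Rhag encodes the Rh-associated glycoprotein, the partner that carries the Rh complex to the membrane and conducts ammonia and carbon dioxide. Its feature read 2.71, 3.70, 2.66 and 1.97 in wild-type and 2.56, 2.19, 3.77 and 2.41 in Fgf10+/- replicates 1 to 4. Only wild-type replicate 2 and Fgf10+/- replicate 3 lay above the array median, and these were the second lowest and the highest lung for Alas2. Means of 2.76 ± 0.71 (SD, n = 4) and 2.73 ± 0.71 (SD, n = 4) differed by -0.03 (SE 0.44, 95% interval -1.04 to 0.99; limma adjusted p = 0.991). The sign turned on single lungs, at 0.03, 0.16 and 0.08 without Fgf10+/- replicate 1, 2 or 4 and 0.29 without wild-type replicate 2.

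Klf1 encodes the erythroid Krüppel-like factor, which switches on adult beta-globin and most red cell membrane and heme genes in erythroblasts. It stayed between 2.46 and 2.97 in wild-type and between 2.16 and 2.98 in Fgf10+/- lungs, below the array median on all 8 arrays. The difference measured at this low signal was -0.12 (SE 0.20, 95% interval -0.58 to 0.34; limma adjusted p = 0.877), or 0.01 without Fgf10+/- replicate 4. Fgf10+/- replicate 3, the lung with the most Alas2, had 2.40, below the mean of 2.56 of its group.

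Hemgn encodes hemogen, a nuclear protein of blood progenitors and erythroblasts. Its feature was bright and steady, at 11.36, 11.49, 11.79 and 11.73 in wild-type and 11.62, 11.69, 11.72 and 11.75 in Fgf10+/- replicates 1 to 4. The whole range was 0.43, or 1.35-fold, in the same lungs in which Alas2 spanned 40.5-fold. By range Hemgn ranked 17346th of 20717 genes. The lung lowest in Alas2 and the lung highest in it, Fgf10+/- replicates 1 and 3, differed by 0.10 for Hemgn. The group difference was 0.11 (SE 0.12, 95% interval -0.18 to 0.39; two-sided exact permutation p = 0.400; limma adjusted p = 0.811). A single feature read Hemgn, so the steady signal has no second reading on this array.

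**Figure D2:**
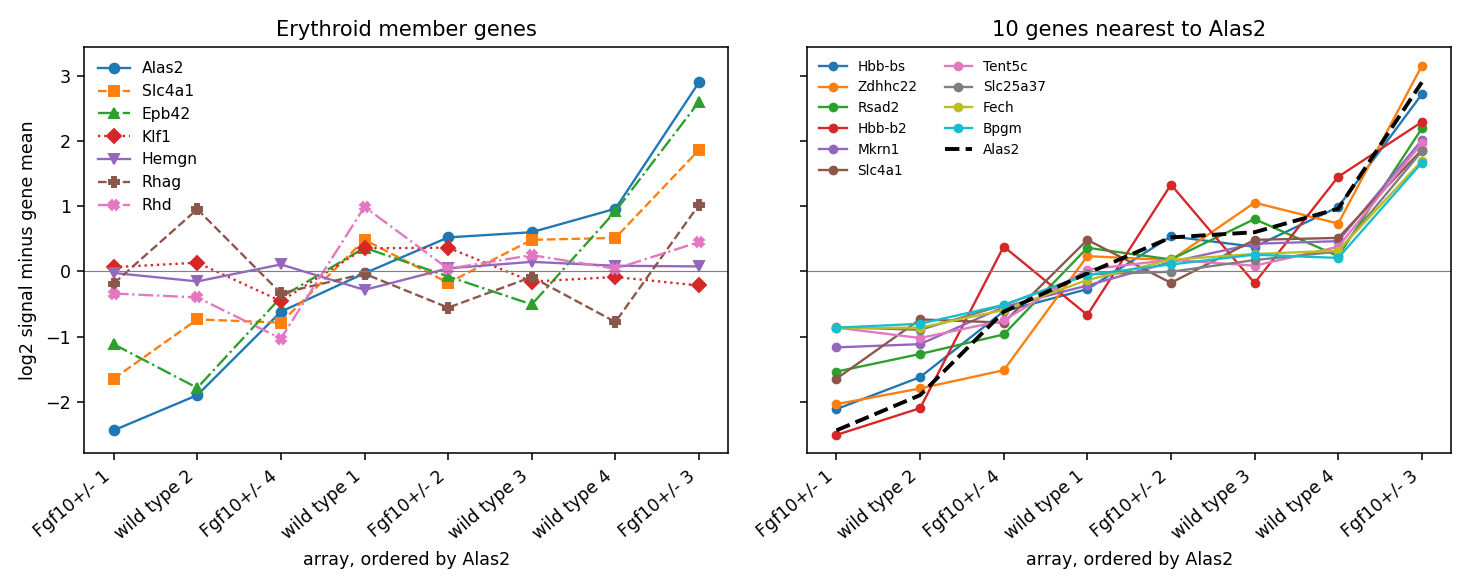
Log2 signal minus the gene's mean over 8 lungs (vertical axis), with lungs ordered from lowest to highest Alas2. The left panel shows the 7 erythroid genes and the right panel Alas2 (dashed) with the 10 genes nearest to it. Alas2 climbs from left to right by the choice of order, and Slc4a1 and Epb42 climb with some dips. Hemgn and Klf1 stay near 0, and the genes in the right panel mostly climb with Alas2.

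None of the 7 members passed the test between genotypes. At an adjusted p of 0.05 in limma, 0 of 7 members were called, against 0% of 20717 genes. At an unadjusted p under 0.05, 0 of 7 members stood out, against 11.1% of all genes. The groups overlapped for all 7, while they did not overlap for 7.42% of all genes. The mean was higher in Fgf10+/- for 3 members (Alas2, Epb42, Hemgn) and lower for 4. The median member difference was -0.03, and the median over all genes was 0.00. For the genes that swung, the intervals are wide, and they include a change in either direction of more than 1 on the log2 scale for Alas2, Slc4a1 and Epb42. For Hemgn the interval allows at most 0.39.

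**Figure D3:**
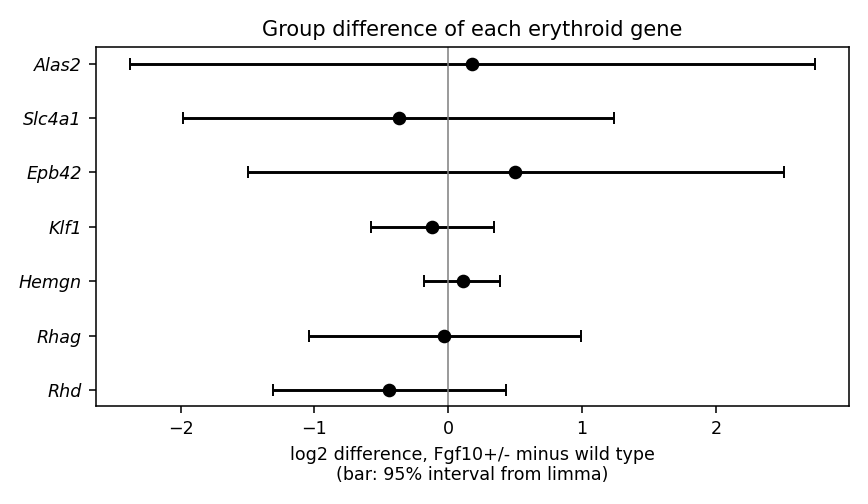
Log2 difference between Fgf10+/- and wild-type lungs for each of the 7 erythroid genes (points), with 95% intervals from limma (bars). All intervals include 0, from the narrow one of Hemgn (-0.18 to 0.39) to the wide one of Alas2 (-2.38 to 2.74).

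Most adult globins, the protein part of hemoglobin, had the same lungs at their ends as Alas2. Of 9 listed globin genes 8 were measured, and 6 of these had their highest signal in Fgf10+/- replicate 3 and their lowest in Fgf10+/- replicate 1 or wild-type replicate 2, the 2 lungs lowest in Alas2. Of all genes, 5.21% had these ends. Hbb-bs, an adult beta-globin gene, read 11.48, 10.13, 12.13 and 12.74 in wild-type and 9.64, 12.29, 14.47 and 11.14 in Fgf10+/- replicates 1 to 4, a 28.5-fold span. Hbb-b2 spanned 10.68 to 15.48 and had the highest group difference of the list, 0.75 (SE 1.10, limma adjusted p = 0.856). The brightest globin feature, Hba-a2, lay between 15.51 and 15.94, close to the maximum of 15.99, where differences are compressed. Hba-a1 and Hbb-bt, which are among the 6, also came close to it. Fgf10+/- replicate 3 led wild-type replicate 4 only narrowly there, at 15.99 against 15.98 for Hba-a1 and 15.80 against 15.64 for Hbb-bt. Adult globin genes are near-identical copies, so each feature may read more than 1 of them. The embryonic globins Hba-x, Hbb-bh1 and Hbb-y stayed at means of 2.50, 2.93 and 3.63, around the array median. Hbb-bh1 and Hbb-y are among the 6, but the lung lowest in Alas2, Fgf10+/- replicate 1, was their second highest (3.59 against 3.90 in Fgf10+/- replicate 3 for Hbb-bh1, and 4.25 against 4.27 for Hbb-y). Hba-x had the lowest difference, -0.41 (SE 0.43, limma adjusted p = 0.787), with wild-type replicate 1 at 4.10 and the other lungs at 1.92 to 2.57. None of the 8 passed, and 0 had an unadjusted p under 0.05.

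Among genes of heme synthesis and mitochondrial iron import, 12 of 14 were measured and 0 passed. Of the 12, 1 had an unadjusted p under 0.05, against 11.1% of all genes. That gene was Alad, the enzyme after ALAS, with the lowest difference of the list, -0.28 (SE 0.11, limma adjusted p = 0.404). The list median was 0.01. Fech, the ferrochelatase that inserts iron into heme, and Slc25a37 (mitoferrin-1), the iron importer of erythroid mitochondria, followed Alas2. Fech ran from 9.73 in wild-type replicate 2 to 10.91 in wild-type replicate 4, and from 9.72 in Fgf10+/- replicate 1 to 12.29 in Fgf10+/- replicate 3. Slc25a37 had the highest difference, 0.23 (SE 0.57, limma adjusted p = 0.921), and a 6.51-fold span between Fgf10+/- replicates 3 and 1, with a second feature 2.03 apart on the log2 scale. The brightest of the list, Urod, an enzyme of every cell that makes heme, stayed between 10.89 and 11.22.

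Among red cell membrane and skeleton genes, 15 of 18 were measured, with a median difference of 0.04. None passed, 0 had an unadjusted p under 0.05, and 3 (Dmtn, Kel and Tspan33) had the ends of Alas2. Kel, the Kell blood group protease, had the lowest difference, -0.98 (SE 0.54, 95% interval -2.22 to 0.25; limma adjusted p = 0.559). It read 6.03, 5.29, 5.66 and 6.26 in wild-type and 3.50, 4.88, 6.31 and 4.61 in Fgf10+/- replicates 1 to 4, so that 3 of the 4 Fgf10+/- lungs lay below all wild-type lungs and the fourth above them. Xk, its membrane partner, had the highest, 0.55 (SE 0.43, limma adjusted p = 0.701), near the floor. Aqp1, a water channel of red cells that lung endothelium also makes, was the brightest and stayed between 12.77 and 13.07.

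Several late erythroid messages also followed Alas2. Of 20 listed genes of terminal maturation and red cell enzymes 19 were measured, with a median difference of 0.08. None passed, 0 had an unadjusted p under 0.05, and 8 had the ends of Alas2. Bpgm makes the 2,3-bisphosphoglycerate that lowers the oxygen affinity of hemoglobin. It read 9.96, 9.21, 10.27 and 10.22 in wild-type and 9.15, 10.12, 11.68 and 9.50 in Fgf10+/- replicates 1 to 4. Mkrn1, a ubiquitin ligase, spanned 9.07-fold between Fgf10+/- replicates 3 and 1, and its other feature differed by 2.91 on the log2 scale between the same lungs. Tent5c, a poly(A) polymerase, spanned 7.95-fold between Fgf10+/- replicate 3 and wild-type replicate 2. Ube2o, the ubiquitin enzyme that clears ribosomes from reticulocytes, lay at 11.51 in Fgf10+/- replicate 3 and between 9.93 and 10.55 in the other lungs. Ube2l6 had the highest difference, 0.37 (SE 0.51, limma adjusted p = 0.845). Car1, a red cell carbonic anhydrase, had the lowest, -0.37 (SE 0.47, limma adjusted p = 0.824). Prdx2, a peroxiredoxin abundant in red cells but also in lung, was the brightest and stayed between 11.99 and 12.39.

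All 14 listed erythroid transcription factors and cofactors were measured, with a median difference of -0.01. None passed, and 2 (Tal1 and E2f2) had the ends of Alas2. An unadjusted p under 0.05 was found for 1 (Zfpm1, a GATA1 cofactor, at -0.34), against 11.1% of all genes. Gata1, the master regulator of erythroblasts, had the lowest difference, -0.48 (SE 0.32, limma adjusted p = 0.634). It read 5.76, 4.53, 5.43 and 4.71 in wild-type and 5.08, 4.69, 4.59 and 4.12 in Fgf10+/- replicates 1 to 4, so the lung with the most Alas2 was the third lowest. Bcl11a, a repressor of embryonic globins, had the highest difference, 0.28 (SE 0.27, limma adjusted p = 0.757). Cbfa2t3, a corepressor, was the brightest and stayed between 10.02 and 10.34.

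Of 10 genes of erythropoietin signalling and iron uptake, all measured, 0 passed and 0 had the ends of Alas2. An unadjusted p under 0.05 was found for 2 of the 10, against 11.1% of all genes. Those 2 were Epor, the erythropoietin receptor, at -0.42 (SE 0.18, limma adjusted p = 0.442), and Tfrc, the transferrin receptor of dividing and iron-hungry cells, at -0.49 (SE 0.20, limma adjusted p = 0.426). The Epor groups did not overlap, at 7.54 to 8.14 in wild-type and 7.00 to 7.51 in Fgf10+/- lungs. The same held for 7.42% of all genes. Tfr2 had the lowest difference, -0.55 (SE 0.27, limma adjusted p = 0.515), and Erfe the highest, 0.38 (SE 0.27, limma adjusted p = 0.668), both near the array median. Erfe was also read by other dim features, with means of 2.27 to 3.48, which disagreed, at differences from -0.24 to 1.21. The ferritin gene Ftl1 was the brightest at 14.90 to 15.21.

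Of 8 early blood progenitor genes, all measured, 0 passed, 1 (Myb) had an unadjusted p under 0.05, and 1 (Hoxa9) had the ends of Alas2. Of all genes, 11.1% had an unadjusted p under 0.05 and 7.42% had groups that did not overlap. The mean deviation of the list was lowest in Fgf10+/- replicate 1, at -0.25, as for the members. It was highest in Fgf10+/- replicate 3, at 0.17, but nearly the same in wild-type replicate 4 (0.16) and Fgf10+/- replicate 4 (0.15). MYB keeps blood progenitors dividing. It read 7.29, 6.94, 7.15 and 7.02 in wild-type and 6.45, 6.26, 6.80 and 6.33 in Fgf10+/- replicates 1 to 4, without overlap, at a difference of -0.64 (SE 0.15, limma adjusted p = 0.189). Hoxa9 had the highest difference, 0.23 (SE 0.51, limma adjusted p = 0.909), with Fgf10+/- replicate 3 at 4.59 and the other lungs at 2.18 to 3.33. This feature had a mean of 2.97, below the array median, and differed by 2.41 between Fgf10+/- replicates 3 and 1. The other Hoxa9 feature, with a mean of 2.39, differed by only 0.23 between these lungs. The high list mean in Fgf10+/- replicate 3 thus leans on 1 dim feature. Cd34, also a marker of lung endothelium, was the brightest at 13.11 to 13.47.

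Counterparts of the members that work outside the red cell differed in how steady they were. Alas1, the housekeeping form of the ALAS enzyme, lay between 11.80 and 12.39 and was 0.03 apart between Fgf10+/- replicates 3 and 1, where Alas2 was 5.34 apart. Slc4a2, the widely made sister exchanger of Slc4a1, lay between 7.58 and 8.30. Rhbg spanned 3.26-fold and Klf4 2.26-fold. They are not set against Rhag and Klf1 by fold, since the lowest values of Rhag and Klf1 lie below the array median. Rhbg, a Rh glycoprotein of epithelia, had the lowest difference of these 9 genes, -0.40 (SE 0.30, limma adjusted p = 0.689), and Tgm2, a transglutaminase related to protein 4.2, the highest, 0.26 (SE 0.12, limma adjusted p = 0.480). None of the 9 passed, and 0 had the ends of Alas2. An unadjusted p under 0.05 was found for 1 (Slc4a3, at -0.36), against 11.1% of all genes.

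Several genes of the erythroid lists were among those with the most similar course over the 8 lungs. Among 10359 genes above the median signal, likeness was taken as the root mean square (RMS) distance between mean-centred log2 profiles. Nearest to the average profile of the 7 members were Ube2o (distance 0.19), Bpgm (0.22), Isg20 (0.23), Tspo2 (0.23), Fchsd1 (0.25), Fech (0.25), Gpx1 (0.27), Slc25a37 (0.27), Krtap19-4 (0.27) and Tspan33 (0.28), where a flat gene would lie at 0.60. Of these 10, 6 were on the erythroid lists. The lists were chosen with earlier results of these data known, so this count is a description and was not tested. The share of the 10359 genes that is on these lists was not worked out. Tspo2, an erythroid relative of the mitochondrial translocator protein, was not on a list, and read 7.48 in Fgf10+/- replicate 3 and 5.91 in Fgf10+/- replicate 1. Gpx1, a glutathione peroxidase rich in red cells, read 13.51 and 12.35 in the same lungs.

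With Alas2 alone as the target, a choice made after its values were seen, the 10 nearest genes were Hbb-bs (0.20), Zdhhc22 (0.43), Rsad2 (0.58), Hbb-b2 (0.64), Mkrn1 (0.66), Slc4a1 (0.71), Tent5c (0.78), Slc25a37 (0.83), Fech (0.84) and Bpgm (0.87), where a flat gene would lie at 1.58. Of these, 8 were members or on the erythroid lists, again as a description only. Zdhhc22, a palmitoyltransferase, read 8.13, 6.10, 8.95 and 8.63 in wild-type and 5.86, 8.07, 11.05 and 6.38 in Fgf10+/- replicates 1 to 4. Rsad2, known as the interferon-induced protein viperin, read 7.90, 6.27, 8.34 and 7.77 in wild-type and 6.00, 7.72, 9.73 and 6.57 in Fgf10+/- replicates 1 to 4. Both had the same lungs at the top and at the bottom as Alas2, and their group differences were -0.11 (SE 1.15) and -0.06 (SE 0.81).

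**Figure D4:**
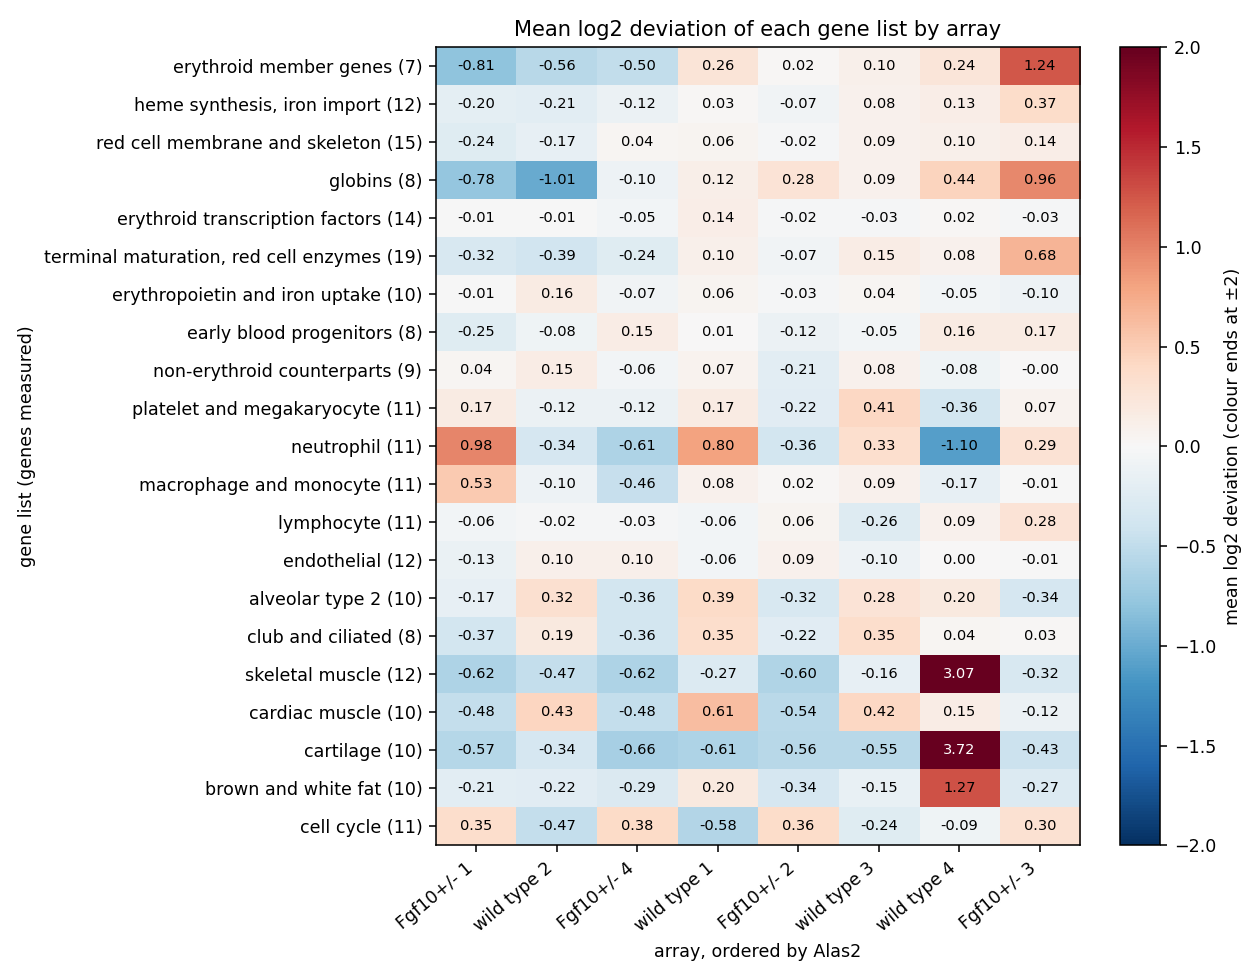
Mean log2 deviation of each gene list from its gene means (colour and printed value) in each lung, with lungs ordered from lowest to highest Alas2 and the number of measured genes in brackets. Erythroid members, globins and terminal maturation genes run from negative at left to positive at right. Neutrophil genes have no steady course, with 0.98 in Fgf10+/- replicate 1, 0.80 in wild-type replicate 1, -1.10 in wild-type replicate 4 and 0.29 in Fgf10+/- replicate 3. Skeletal muscle and cartilage genes stand out only in wild-type replicate 4.

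Markers of other blood cells were ordered differently. The average log2 deviation of the 7 members was -0.81 in Fgf10+/- replicate 1, -0.56 in wild-type replicate 2, -0.50 in Fgf10+/- replicate 4, and 1.24 in Fgf10+/- replicate 3. In the same lungs the 11 measured neutrophil markers stood at 0.98, -0.34, -0.61 and 0.29. The neutrophil list was highest in the lung with the least Alas2 and lowest, at -1.10, in wild-type replicate 4, the lung with the second most. S100a8, a neutrophil calcium-binding protein, lay at 12.98 in Fgf10+/- replicate 1 and 11.83 in Fgf10+/- replicate 3. Other neutrophil markers differed less between these lungs, such as Camp (8.90 and 8.74) and Ltf (8.32 and 8.24). Elane went the other way, at 4.17 in Fgf10+/- replicate 1 and 5.18 in Fgf10+/- replicate 3. The 11 platelet and megakaryocyte markers stayed between -0.36 and 0.41 and were highest in wild-type replicate 3. None of the 11 neutrophil, 11 platelet, 11 macrophage or 12 endothelial markers had the ends of Alas2. Endothelial markers, the lining of the vessels that hold the blood, stayed between -0.13 and 0.10 over the lungs.

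The summed linear signal of the neutrophil list ran from 14.48 to 15.15 (log2) in wild-type and from 14.72 to 15.61 in Fgf10+/- lungs, and that of the platelet list from 10.73 to 11.46 and from 10.90 to 11.37. That of the lymphocyte list, which like the erythroid genes was highest in Fgf10+/- replicate 3 (mean deviation 0.28 over 11 genes), ran from 9.80 to 10.29 and from 9.80 to 10.32. Of the measured markers, 1 neutrophil, 2 platelet and 2 lymphocyte genes had a mean below the array median. Their part in the erythroid values was not tested. The skeletal muscle, cartilage and fat markers that set wild-type replicate 4 apart had deviations of -0.32, -0.43 and -0.27 in Fgf10+/- replicate 3. Wild-type replicate 4 raises the means from which these are taken, so the negative sign alone says little. In the other Fgf10+/- lungs the deviations were -0.62 to -0.60 for muscle, -0.66 to -0.56 for cartilage and -0.34 to -0.21 for fat. Without wild-type replicate 4 and Fgf10+/- replicate 3 together, the difference was -0.40 for Alas2, and 0 members passed.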

How the data were processed

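The deposited table holds log2 signals of 62976 features in 8 arrays; the scale was read from the values, 1.51 to 15.99. Per the labels' protocols, the extraction kit was miRNeasy and the amplification kit Low-Input QuickAmp. The authors had brought the arrays to a common distribution, as the values show: sorted values differed by at most 0.0042 between arrays. The submitters' processing notes name limma. How background and flagged spots were handled is not given in the sources used, so compression of low signals is unknown.

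The platform annotation named 31465 features, of which 31425 were complete. Symbols were updated by RefSeq accession (29050 features) or unique synonym (349), giving 20717 genes. The feature with the highest mean stood for its gene. Groups came from the titles. limma 3.58.1 in R 4.3.3 (lmFit on group, eBayes, two-sided, Benjamini-Hochberg over all genes, threshold 0.05) was tested on simulated data. There it called 39 of 100 genes changed by 1 on the log2 scale and 78 of 100 changed by 2. Of its 121 calls, 4 were false. Many changes of this size can therefore go uncalled with 4 arrays a group. Single genes also had an exact permutation test over 70 assignments. Its smallest two-sided p is 0.0286. The series text calls the 4 samples of a group independent; pups or litters are not named, and 4 arrays a group limit the precision.

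The members and gene lists were chosen with earlier results of these data known. Named were all members and, from each list, the genes with the highest and lowest difference and the brightest gene, those with an unadjusted p under 0.05, the genes nearest in profile, and examples chosen after their values were seen. Alternatives were the mean of all features, every feature on its own, median centring, further quantile normalization, leaving out dim genes, a variance trend, array weights, a replicate block, and leaving out lungs; the count of called genes without both wild-type replicate 4 and Fgf10+/- replicate 3 was added after seeing the data. Promoter sequences are RefSeq's (GRCm38.p6). Figures were drawn with matplotlib 3.10.9.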

Additional observations from a re-analysis of the deposited data

Results flagged for a closer look

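Single lungs stood apart from the other 3 of their genotype in 5 of 90 groups of 4 tested for 45 named genes. Chance flags about 1 in 20 groups. In wild-type replicate 2, Slc4a1 was at 7.51 against 8.73 to 8.76 in the other wild-type lungs, Hba-a2 at 15.60 against 15.83, Ube2o at 10.06 against 10.47 to 10.55, and Isg20 at 10.25 against 10.87 or more. In Fgf10+/- replicate 3, Isg20, an exonuclease, was at 12.12 against 10.01 to 10.28.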

How the results depend on the processing

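No tested member was called in any of 17 alternative fits; 5 members were tested with genes below the 25th percentile of signal left out, 3 below the 50th, and 7 in the others. The smallest adjusted p of a member in limma was 0.468, for Slc4a1 without Fgf10+/- replicate 3, the fit in which 1 member had an unadjusted p under 0.05. The number of all genes called was 0 in the reported fit and 38 or 286 with genes below the 25th or 50th percentile of signal left out, 413 with a robust variance trend, and 8 when arrays were weighted. With single lungs left out it ran from 0 to 1, the 1 being Sgo2a (2.32, adjusted p = 0.0114) without wild-type replicate 4. The cause was not tested. With single lungs left out, the difference ran from -0.75 to 1.02 for Alas2, -1.05 to 0.12 for Slc4a1, -0.28 to 0.96 for Epb42, -0.26 to 0.01 for Klf1 and -0.37 to 0.29 for Rhag, so their signs were not stable, while Hemgn (0.03 to 0.17) and Rhd (-0.67 to -0.17) kept theirs. The member median ran from -0.37 to 0.12. Leaving out wild-type replicate 4 together with Fgf10+/- replicate 3 gave -0.40 for Alas2. With the replicate number as a block, 0 genes and 0 members were called and the Alas2 difference was 0.18 (SE 1.00). Same-numbered lungs deviated together only weakly (r from 0.018 to 0.114, with 2 of 4 closest to their own number). All of these r were positive, so a weak pairing by number cannot be told from none, and it was not tested. No pseudocount was tried, since the values are logs. Signals near or below 3.47, or near 15.99, limit what Epb42, Klf1, Rhag and the globins can show.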

Other observations

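Car1, a carbonic anhydrase of red cells, was read by 2 dim features that disagreed. The one that stood for the gene, with a mean of 2.99, differed by 0.30 between Fgf10+/- replicates 3 and 1, while the other, with a mean of 2.75, differed by 2.92 between the same lungs. Both features of Isg20 separated these lungs in the same direction, and differed by 1.92 and 2.36 between them. Trim10, an erythroid ubiquitin ligase, was highest in Fgf10+/- replicate 3 (6.82) but lowest in Fgf10+/- replicate 4 (3.87).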
